A study of Mus musculus with 4 samples.

Results

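The 10 genes described here lie at 7 loci and were chosen because their RNA was far apart, in some cases nearly present or absent, between spinal cords of Chd7 conditional knockout (cKO) mice and of control (Ctrl) mice. They were picked by symbol from results of these same libraries and are 10 of the 22096 gene symbols in the deposited tables. Their own differences are therefore given as a description, with no test. The cKO animals were Chd7f/f; Olig1-cre, and the Ctrl animals were Chd7f/+; Olig1-cre. Both genotypes carried the Olig1-driven Cre, so the Ctrl animals could lose 1 copy of Chd7 in Cre-expressing cells. All tissue was whole spinal cord of a mixed strain background at postnatal day 8, and each group had 2 libraries that the labels do not tie to separate animals. P-values thus measure the spread between these libraries, which may be technical within Ctrl; the cKO libraries differed in Y-linked RNA and so were not repeats of 1 RNA sample.

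CHD7 is an ATP-dependent chromatin remodeler, and Olig1 is a transcription factor gene of the oligodendrocyte lineage, the cells that form myelin in the central nervous system. Processed pseudogenes, which are copies of a spliced mRNA put back into the genome, and recently duplicated genes share long stretches of sequence with their relatives, and short reads that fall in those stretches can belong to more than 1 copy.

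Chd7 itself had 2.52 and 3.38 FPKM (fragments per kilobase of transcript, scaled to the mapped total) in the cKO cords, against 3.52 and 3.12 FPKM in the Ctrl cords. The groups overlapped, with a log2 fold change of -0.13 ± 0.16 (SE) and a limma adjusted p of 0.657. Only some cells of a whole cord express the Cre, and the level over the whole transcript does not check the floxed exons. Depth relative to the shallowest library was 2.22 and 3.19 in the cKO libraries and 2.07 and 1.0 in the Ctrl libraries.

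The 10 genes fall into 4 kinds. BC002163 is annotated as a processed pseudogene and AI506816 as a processed transcript with no coding frame. Hddc3, Gdpd3 and Nudt19 encode metabolic enzymes, and Rec8 encodes a cohesin subunit of meiosis. Dynlt1a, Dynlt1b, Tmem181a and the pseudogene Tmem181b-ps lie side by side on chromosome 17 and have near-identical copies among themselves. Further Dynlt1 copies and the pseudogene Tmem181d-ps lie farther along the chromosome.

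The sequences below show how closely BC002163 follows the mRNA of Ndufs5, and Dynlt1b that of Dynlt1a, which bears on how reads could be assigned. In GENCODE M21 transcripts (GRCm38), BC002163 is a 319-base copy at chr16:42955631-42955949 on the plus strand. It was identical at 317 of 319 bases with the coding sequence of Ndufs5, a gene at chr4:123712710-123718202 on the minus strand. Its first 120 bases, chr16:42955631-42955750, hold both differences, C81T and G105A, written with the base of BC002163 first and the base of Ndufs5 last. Positions are counted from 1 at the 5′ end of each printed stretch, and capitals mark the bases that differ.
BC002163: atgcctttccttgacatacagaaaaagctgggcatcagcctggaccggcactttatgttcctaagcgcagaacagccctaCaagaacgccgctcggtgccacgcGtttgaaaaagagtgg
Ndufs5: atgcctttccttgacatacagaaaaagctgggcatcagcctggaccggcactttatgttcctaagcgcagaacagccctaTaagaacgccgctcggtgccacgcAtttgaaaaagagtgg
Dynlt1b (chr17:6430112-6436296, plus strand) and Dynlt1a (chr17:6306340-6317500, minus strand) differ at 1 of 339 coding bases, A21C, shown here in their first 120 coding bases.
Dynlt1b: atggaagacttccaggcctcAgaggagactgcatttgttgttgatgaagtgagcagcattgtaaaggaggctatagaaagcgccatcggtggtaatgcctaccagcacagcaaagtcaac
Dynlt1a: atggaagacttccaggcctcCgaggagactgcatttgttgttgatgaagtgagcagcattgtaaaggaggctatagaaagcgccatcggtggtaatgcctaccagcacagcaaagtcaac

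Of all 50-base windows of BC002163, 72.6% occur letter for letter in the Ndufs5 transcript, and of all 100-base windows 52.3% do. For Dynlt1b against Dynlt1a these shares were 76.3% and 67.1%, and 762 of 771 transcript bases were identical. Tmem181b-ps and Tmem181a matched at 1659 of 1673 aligned bases, and 59.1% of the 50-base windows of Tmem181b-ps occur in Tmem181a. These shares are of GENCODE transcripts, and the deposited transcripts behind the FPKM differ in length. Tmem181b-ps has 1859 bases in GENCODE against 4710 deposited, Tmem181a 4405 against 1869, Dynlt1a 3321 against 744 and BC002163 319 against 500. The shares thus do not measure how many of the reads behind the FPKM were ambiguous. The sources used here do not say how the authors' tools assigned reads that match several places. The values of these copies are therefore uncertain one by one, and their sums are given beside them.

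All 10 genes had a mean of at least 1 FPKM over the 4 libraries, and the groups did not overlap for any of them. Of them 6 were higher and 4 were lower in cKO. No overlap is common with 2 libraries a group: it held for 53.5% of the 12913 gene sums past the same filter, 24.3% higher and 29.3% lower in cKO. Because these values chose the genes, nothing is read from this. In whole cord RNA, fewer cells of a type and less RNA per cell cannot be told apart. On FPKM + 1, the lowest library of the higher group was at least 2-fold above the highest of the other group for 7 of the 10 genes, 3 higher and 4 lower in cKO. In all, 46 gene sums (0.356%) had such a gap, 0.0697% higher and 0.287% lower. A gap of at least 4-fold was held by 3 gene sums (0.0232%; 0.0155% higher and 0.00774% lower), namely BC002163, Dynlt1b and the predicted gene Gm6813, which is named after its values were seen. Gm6813 had 11.3 and 9.06 FPKM in the cKO cords, against 0.660 and 0.918 FPKM in the Ctrl cords. Dynlt1a, Tmem181a, Nudt19 and Tmem181b-ps had gaps of 1.31, 1.36, 1.95 and 2.13-fold, which do not bear out the description as nearly present or absent. Hddc3 and AI506816 were lower but still read in the cKO cords, at 6.51 and 5.72 FPKM and at 2.01 and 1.61 FPKM.

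**Figure D1:**
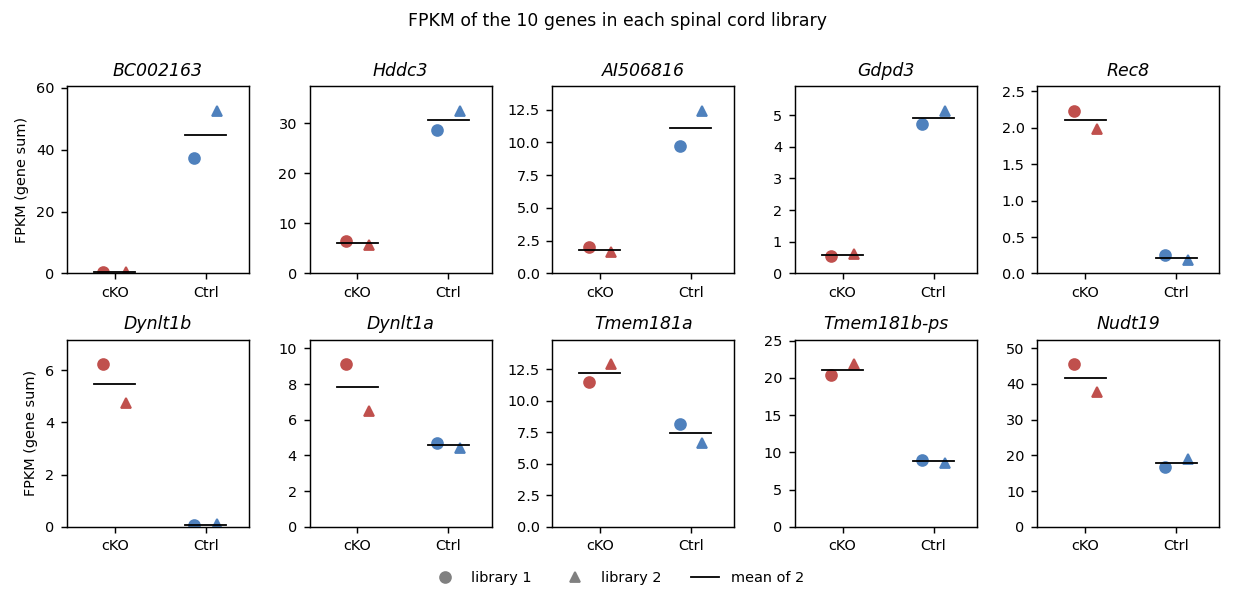
FPKM of each of the 10 genes (vertical axes, linear and starting at 0), with cKO libraries left in red and Ctrl libraries right in blue; circles are library 1, triangles library 2 and the line is the mean of 2. BC002163 lies at 0.425 and 0.578 FPKM in cKO against 37.3 and 52.5 FPKM in Ctrl, and Dynlt1b at 6.22 and 4.72 FPKM in cKO against 0.0563 and 0.118 FPKM in Ctrl.

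**Figure D2:**
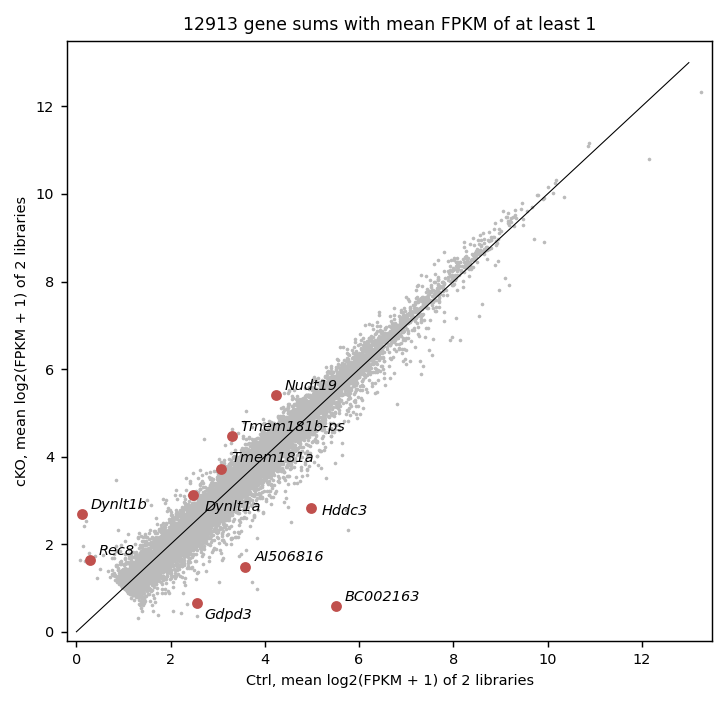
Mean log2(FPKM + 1) of the 2 cKO libraries (vertical axis) against that of the 2 Ctrl libraries (horizontal axis) for 12913 gene sums (grey), with the 10 genes in red and the line of equality. BC002163 and Dynlt1b lie farthest from the line among the 10, while Dynlt1a and Tmem181a lie within the grey cloud.

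BC002163 had 0.425 and 0.578 FPKM in the cKO cords, against 37.3 and 52.5 FPKM in the Ctrl cords. Both cKO libraries were near 0 and both Ctrl libraries were far above them. The means were 0.502 ± 0.108 FPKM in cKO and 44.9 ± 10.8 FPKM in Ctrl (SD, n = 2 each), a difference of -4.92 on the log2(FPKM + 1) scale and the widest gap among all lower gene sums. From coverage and length, these values stand for roughly 13 reads in the cKO libraries and 599 in the Ctrl libraries. Per unit of depth that is an 81.1-fold higher count in Ctrl. The exact 95% interval of 47.1 to 153 covers only the counting error of these estimated reads, pooled within each group. It is no test, because these values chose the gene.

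The functional parent, Ndufs5, which encodes an accessory subunit of respiratory complex I, went the other way. It had 113 and 77.4 FPKM in the cKO cords, against 66.7 and 58.3 FPKM in the Ctrl cords. Both cKO libraries were above both Ctrl libraries, with a log2 fold change of 0.58 ± 0.19 (SE) and a limma adjusted p of 0.0412. Reads of the shared stretches can be counted for either copy, so this test is not independent of how BC002163 was chosen. The Ndufs5 call was met in 6 of 14 other settings of the test. It was lost under both other scalings, with the replicate block and without cKO replicate 1 (log2 fold change 0.31). It was also lost without Ctrl replicate 1 (log2 fold change 0.67) and without Ctrl replicate 2 (0.48). Ndufs5 was the 1 gene called among the 8 complex I genes Ndufs1 to Ndufs8, where 10.7% of all 12913 gene sums were called. Together, BC002163 and Ndufs5 had 113.1 and 78.0 FPKM in the cKO cords, against 103.9 and 110.8 FPKM in the Ctrl cords. The summed levels overlapped, with a difference of -0.19 on the log2 scale for the total of both copies. BC002163 took 0.376% and 0.741% of that sum in cKO, against 35.9% and 47.4% in Ctrl.

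The deposited tables list BC002163 a second time, at chr4:123389953-123395404 (mm9), inside the span of Ndufs5, with a status other than OK. That entry had 2.26 and 16.3 FPKM in the cKO cords, against 0.00026 and 9.03 FPKM in the Ctrl cords. Its groups overlapped, and it was left out of the levels above. With it, the log2 difference of BC002163 was -2.59. In mm9 the first entry spans chr16:42955693-42956192, and in GENCODE the pseudogene lies on the same strand as Zbtb20, a zinc-finger repressor gene. Of 21 Zbtb20 transcripts, 6 span it and 0 have an exon over it. Zbtb20 was low in every library, with 0.286 and 0.612 FPKM in cKO against 0.801 and 0.751 FPKM in Ctrl, and was under the filter for testing. Olig1, the gene that names the Cre allele, lies 48.3 Mb away on the same chromosome.

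AI506816, a noncoding RNA gene at chr5:23198079-23218485 (mm9), had 2.01 and 1.61 FPKM in the cKO cords, against 9.74 and 12.4 FPKM in the Ctrl cords. Both cKO libraries were below both Ctrl libraries, with means of 1.81 ± 0.282 FPKM in cKO and 11.1 ± 1.88 FPKM in Ctrl (SD, n = 2 each). The gene sum hides a contrast between its 2 listed transcripts. The long transcript of 2431 bases had 0.226 and 0.154 FPKM in cKO, against 8.89 and 11.3 FPKM in Ctrl, or about 17.3 and 16.7 reads in cKO against 595 and 379 in Ctrl. The short transcript of 453 bases had 1.78 and 1.45 FPKM in cKO, against 0.853 and 1.08 FPKM in Ctrl, or about 16.1 and 18.8 reads in cKO against 7.12 and 4.39 in Ctrl. The long transcript was nearly absent from the cKO cords while the short one was not lower there, and both rest on under 20 reads a library in cKO. The short transcript made up 88.7% and 90.4% of the gene's FPKM in cKO, against 8.76% and 8.69% in Ctrl.

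In the deposited tables both transcripts end at the same coordinate, 23218485, where the minus-strand gene starts, and the short one stops at 23215835. In GENCODE, 3 of the 5 AI506816 transcripts begin with the same first exon. The RefSeq promoter of the gene (chr5:23712618-23712917, GRCm38.p6, minus strand) is printed because both transcripts share this start. Capitals mark the 26 bases of the first exon.
AI506816 promoter: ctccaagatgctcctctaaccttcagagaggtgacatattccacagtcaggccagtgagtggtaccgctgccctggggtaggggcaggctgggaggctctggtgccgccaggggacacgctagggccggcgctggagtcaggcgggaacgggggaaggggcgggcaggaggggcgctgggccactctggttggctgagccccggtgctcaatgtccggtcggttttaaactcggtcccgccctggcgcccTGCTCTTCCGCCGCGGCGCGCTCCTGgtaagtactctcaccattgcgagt
This window holds 21 CG dinucleotides, read as the letters CG, which are the same on both strands. Of 32851 promoters in the table, 24.8% hold at least as many. Of the 10 genes, 6 have an entry in the promoter table.

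Hddc3 encodes an HD-domain hydrolase, the animal relative of the bacterial enzymes that break down the alarmone ppGpp, and lies at chr7:87488023-87490983 (mm9). It had 6.51 and 5.72 FPKM in the cKO cords, against 28.7 and 32.5 FPKM in the Ctrl cords. The 2 libraries of each group lay close together, with means of 6.12 ± 0.558 FPKM in cKO and 30.6 ± 2.66 FPKM in Ctrl (SD, n = 2 each), and the Ctrl mean was 5.0-fold the cKO mean. Hddc3 held the second widest gap among lower gene sums. Of the other HD-domain genes on the list, Hddc2 and Samhd1, 0 of 2 passed the limma test, beside 10.7% of all gene sums called. At an unadjusted p under 0.05 there were also 0 of 2. Hddc2 had 23.5 and 20.7 FPKM in cKO against 19.7 and 20.7 FPKM in Ctrl.

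Gdpd3 encodes a glycerophosphodiester phosphodiesterase that acts as a lysophospholipase D and yields lysophosphatidic acid, and lies at chr7:133909928-133919159 (mm9). It had 0.546 and 0.630 FPKM in the cKO cords, against 4.71 and 5.13 FPKM in the Ctrl cords. Both cKO libraries were under 1 FPKM, and the Ctrl mean was 8.37-fold the cKO mean, at 0.588 ± 0.0596 FPKM in cKO and 4.92 ± 0.302 FPKM in Ctrl (SD, n = 2 each). Among 8 other tested enzymes of lysophospholipids and N-acylethanolamines, 0 were higher and 2 were lower in cKO by the limma test. By that test 4.13% of all gene sums were higher and 6.54% were lower. At an unadjusted p under 0.05, 0 of these enzymes were higher and 3 were lower. Enpp2, which encodes autotaxin, another lysophospholipase D, fell to 52.3 and 84.1 FPKM in cKO, against 176 and 150 FPKM in Ctrl (log2 fold change -1.28, limma adjusted p = 2.23e-05). Napepld, the phospholipase D of N-acylethanolamine synthesis, fell by 0.47 on the log2 scale (limma adjusted p = 0.0425), a call met in 3 of 13 other settings and lost without any one of the 4 libraries (0.0533 to 0.27). Among the family relatives that were not called, the log2 fold change was 0.15 for Gdpd1, 0.20 for Gdpd2 and -0.01 for Gdpd5.

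At the chromosome 17 cluster, all 4 genes were higher in the cKO cords, to very different degrees. In mm9 they are Tmem181a at chr17:6270475-6305783, Dynlt1a at chr17:6310545-6317474, Dynlt1b at chr17:6429260-6435443 and Tmem181b-ps at chr17:6438150-6450142. Dynlt1b, which encodes a Tctex-type light chain of the dynein motor, had 6.22 and 4.72 FPKM in cKO, against 0.0563 and 0.118 FPKM in Ctrl. The Ctrl values stand for about 1 read in each library, against about 116 and 124 reads in the cKO libraries. Taken as 240 against 2 reads and set to equal depth, the cKO level was 68.1-fold higher. The exact 95% interval of 18.7 to 566 covers only the counting error of these estimated, pooled reads. It is no test, because these values chose the gene. Dynlt1b was thus close to the detection limit in both Ctrl libraries and plainly read in both cKO libraries.

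Dynlt1b has several near-identical copies: its 771 transcript bases matched Dynlt1c at 765, Dynlt1f at 764 and Dynlt1a at 762. Dynlt1a had 9.11 and 6.52 FPKM in the cKO cords, against 4.72 and 4.45 FPKM in the Ctrl cords. It was present in every library, and the cKO mean was 1.70-fold the Ctrl mean. Dynlt1b made up 40.6% and 42.0% of the pair's FPKM in cKO, against 1.18% and 2.58% in Ctrl. The sum over the Dynlt1 family was 15.4 and 11.4 FPKM in cKO, against 4.78 and 4.68 FPKM in Ctrl, a log2 difference of 1.32, and the family totals did not overlap. All entries for Dynlt1c had a status other than OK and were left out of that sum, where they would have added 0 in every library. Entries for Dynlt1e were at 0 in every library as well, and Dynlt1f did not exceed 0.177 FPKM. Of 5 other dynein light chain genes tested, Dynlt3, Dynll1, Dynll2, Dynlrb1 and Dynlrb2, 0 passed the limma test, with log2 fold changes between -0.40 and 0.27. At an unadjusted p under 0.05, 1 did, Dynll1, which was lower in cKO. With 10.7% of all gene sums called, a count of 0 among 5 says little.

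Tmem181b-ps, a transcribed pseudogene, had 20.4 and 21.8 FPKM in the cKO cords, against 9.03 and 8.59 FPKM in the Ctrl cords. Replicates lay close together, and the cKO mean was 2.40-fold the Ctrl mean. Its coding relative Tmem181a, the gene of a multipass membrane protein, had 11.5 and 12.9 FPKM in cKO, against 8.20 and 6.65 FPKM in Ctrl, a 1.65-fold higher mean. Both copies were higher, and their sum was 31.9 and 34.7 FPKM in cKO against 17.2 and 15.2 FPKM in Ctrl, a log2 difference of 1.0. Entries for Tmem181d-ps were at 0 in every library. Tmem181b-ps took 63.9% and 62.8% of the sum in cKO, against 52.4% and 56.4% in Ctrl. In GENCODE, Tmem181a and Dynlt1a overlap on opposite strands, and the noncoding gene Gm26848 overlaps Dynlt1a, Dynlt1b and Tmem181b-ps. The sources used here do not say whether strand was used in counting, so reads of overlapping genes cannot be told apart.

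**Figure D3:**
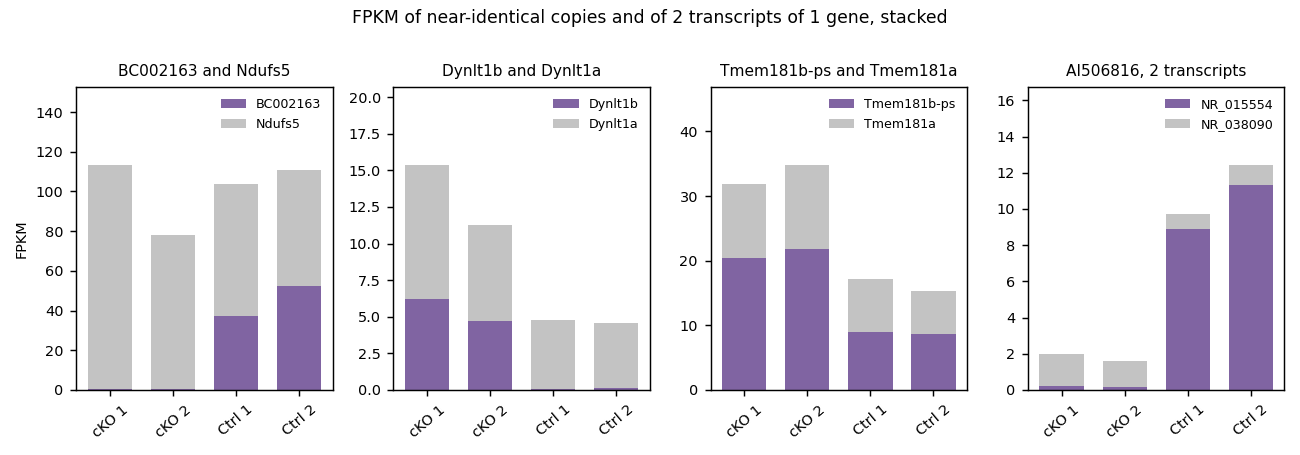
Stacked FPKM (vertical axes, starting at 0) in each library, cKO left and Ctrl right, for BC002163 with Ndufs5, Dynlt1b with Dynlt1a, Tmem181b-ps with Tmem181a, and the long (NR_015554) and short (NR_038090) transcripts of AI506816. The BC002163 and Ndufs5 total overlaps between groups, while the totals of the other 3 panels do not.

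Nudt19 encodes a peroxisomal nudix hydrolase of coenzyme A and lies at chr7:36332204-36340947 (mm9). It had 45.5 and 37.9 FPKM in the cKO cords, against 16.8 and 18.9 FPKM in the Ctrl cords. By FPKM it was the most abundant of the 10 genes in cKO, and its mean was 41.7 ± 5.42 FPKM there and 17.9 ± 1.48 FPKM in Ctrl (SD, n = 2 each), a 2.33-fold difference. GENCODE places the antisense gene B230322F03Rik over it. Of 20 other nudix genes tested, 0 were higher and 1 was lower by the limma test. These limma counts are near the share over all gene sums (4.13% higher and 6.54% lower). At an unadjusted p under 0.05, 1 was higher and 3 were lower, and no share over all gene sums is given at that threshold. The called gene was Nudt7, another peroxisomal hydrolase of coenzyme A, at 3.78 and 3.40 FPKM in cKO against 5.70 and 5.83 FPKM in Ctrl (log2 fold change -0.56, limma adjusted p = 0.0107). The call was lost without either cKO library, at adjusted p of 0.0761 without cKO replicate 1 and 0.107 without cKO replicate 2.

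Rec8 encodes the kleisin subunit that replaces RAD21 in cohesin during meiosis, and lies at chr14:56237003-56244232 (mm9). It had 2.23 and 1.98 FPKM in the cKO cords, against 0.251 and 0.181 FPKM in the Ctrl cords. These stand for about 141 and 177 reads in the cKO libraries, against 14.3 and 4.96 in the Ctrl libraries. The level was low in both groups, and the cKO mean was 9.75-fold the Ctrl mean. Of 7 other cohesin and meiotic axis genes tested, 0 passed the limma test, and at an unadjusted p under 0.05 there were 2, Smc3 and Sycp3, both lower in cKO. With 10.7% of all gene sums called, a count of 0 among 7 says little. Rad21 had 33.7 and 34.7 FPKM in cKO against 34.6 and 30.8 FPKM in Ctrl. The germ cell markers Dazl and Ddx4 did not exceed 0.371 FPKM in any library, and Sycp3 had 1.84 and 2.80 FPKM in cKO against 3.08 and 3.84 FPKM in Ctrl. Under the filter for testing, Sycp1 had 0.00624 and 0.00462 FPKM in cKO against 0.410 and 0.279 FPKM in Ctrl. Rad21l, also under it, had 0.345 and 0.374 FPKM in cKO against 0.236 and 0.206 FPKM in Ctrl. The groups overlapped for Smc1b and Sycp2.

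The genes beside these loci were not used in choosing them and could be tested. Among the 5 nearest gene symbols on each side of each locus, 70 in all, 53 were past the filter. Of these, 1 was higher and 4 were lower in cKO by the limma test, or 9.43%, close to the 10.7% of all gene sums tested. Their log2 fold changes ran from -0.79 to 0.71 with a median of -0.03, against a median of -0.003 over all gene sums. The share depended on the window: of genes starting within 500 kb of the described genes, 5 of 108 tested passed, or 4.63%. Around Hddc3, Gdpd3, Nudt19 and Rec8, 0 of 10, 9, 7 and 9 tested neighbours passed, and 2, 2, 2 and 1 of them had an unadjusted p under 0.05. The share of all gene sums at that unadjusted threshold is not given here, so nothing is read from the unadjusted counts.

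Hddc3 lies between Unc45a and Man2a2, at 0.07 and -0.34 on the log2 scale. Gdpd3 lies between Mapk3 and Ypel3, at -0.21 and 0.28. Rec8 lies between Irf9 and Ipo4, at -0.13 and 0.26. None of these 6 passed the test. In GENCODE, Man2a2 and Gm18310 overlap Hddc3 and Gm9967 overlaps Gdpd3, all on the opposite strand. Whether strand was used in counting is not stated, so reads of these overlaps cannot be told apart either. The nearest genes to Nudt19, Tdrd12 and Rgs9bp, did not exceed 0.307 FPKM in any library.

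Beside BC002163, Gap43, which encodes a protein of growing axons, rose to 319 and 245 FPKM in cKO, against 170 and 170 FPKM in Ctrl (log2 fold change 0.71 ± 0.21 SE, limma adjusted p = 0.0253). On the same side, Igsf11, a cell adhesion gene, fell by 0.71 on the log2 scale (limma adjusted p = 0.00214). These genes start 707 kb and 4053 kb from BC002163, and 4 of its 10 neighbours were tested, of which these 2 were called. Beside AI506816, Pus7, a pseudouridine synthase gene, fell by 0.66 (limma adjusted p = 0.0033) and Rint1, a gene of vesicle tethering, fell by 0.61 (limma adjusted p = 0.00699), while Srpk2 on the other side was at -0.04. At the chromosome 17 cluster, where all 4 described genes were higher, Synj2, a phosphoinositide phosphatase gene, fell by 0.79 (limma adjusted p = 0.000504) and the nearest gene Tulp4 was at -0.38. All 5 calls were lost without cKO replicate 1, with limma adjusted p from 0.0573 for Synj2 to 0.323 for Gap43. The Gap43 call was also lost without Ctrl replicate 1 (0.249) and without Ctrl replicate 2 (0.21), and the Rint1 call without Ctrl replicate 1 (0.0634). With no filter on low values, or with all entries summed, none of the limma calls named here for neighbours and list genes was met.

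**Figure D4:**
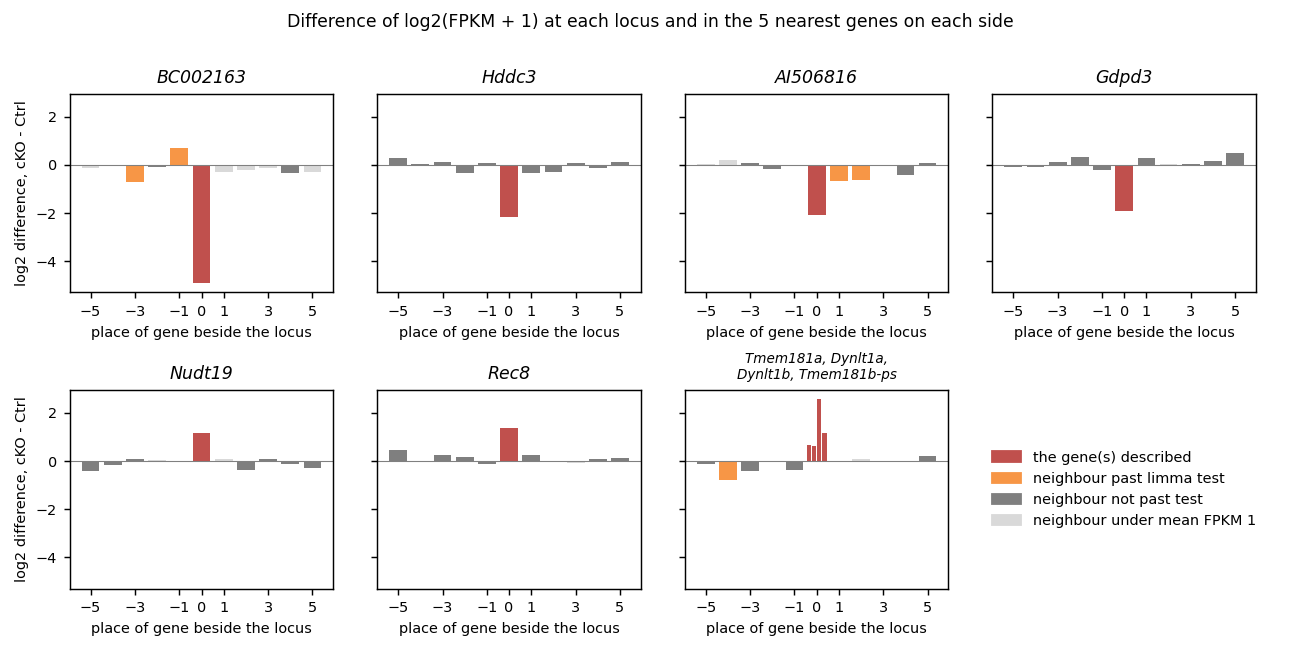
Difference of log2(FPKM + 1), cKO minus Ctrl (vertical axes), for the described genes (red, place 0) and the 5 nearest genes on each side (orange where past the limma test, grey where not, pale where under the filter). Neighbours stay between -0.79 and 0.71 where tested, while BC002163 reaches -4.92 and Dynlt1b 2.56.

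Genes with the most similar pattern were named by the size of the gap between groups over the 4 libraries, on FPKM + 1. Among genes higher in cKO these were Rpph1, Mid1, Hist1h1c, Egfl6, Hoxd11 and Ppp1r3e, with gaps from 3.48 to 1.98-fold. Rpph1, the RNA of ribonuclease P, had 6.22 and 3.60 FPKM in cKO, against 0.320 and 0 FPKM in Ctrl. Among genes lower in cKO they were Opalin, Pcdhgb8, Neat1, Gpr17, Slc45a3 and H2-Bl, with gaps from 3.32 to 2.64-fold. Opalin, a myelin gene of oligodendrocytes, had 3.66 and 5.84 FPKM in cKO, against 21.7 and 23.5 FPKM in Ctrl. Pcdhgb8, a clustered protocadherin gene, had 0.300 and 0.386 FPKM in cKO, against 3.70 and 3.59 FPKM in Ctrl. Predicted genes were passed over in naming these. Those among the first 12 places were Gm6813 (higher, place 1) and, among lower genes, Gm3893 (place 3, gap 3.62-fold) and Gm9199 (place 9, gap 2.75-fold). BC002163, Hddc3, AI506816 and Gdpd3 held places 1, 2, 4 and 5 among all lower gene sums.

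The labels call the strain background mixed and do not give it by library. Among the reported genes listed for known copy number or cis variants between inbred strains, 1 was higher and 2 were lower in cKO by the limma test, beside 4.13% and 6.54% of all gene sums. Gabra2, a GABA receptor subunit gene, fell to 14.6 and 9.67 FPKM in cKO, against 32.1 and 25.9 FPKM in Ctrl (log2 fold change -1.21, limma adjusted p = 2.76e-06). Nnt, a mitochondrial transhydrogenase gene, fell to 3.69 and 4.87 FPKM in cKO, against 8.33 and 8.45 FPKM in Ctrl (log2 fold change -0.84, limma adjusted p = 0.000184). Btbd9 rose by 0.49 on the log2 scale (limma adjusted p = 0.0271), a call lost without cKO replicate 1 (0.31), cKO replicate 2 (0.0783) or Ctrl replicate 2 (0.141). Glo1, Alad, Ide, Fgfbp3 and Btaf1 did not pass. The part of strain background in the differences at the 10 genes was not tested.

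Markers of several cell types and sex-linked genes also differed between these libraries. By the limma test 5 of 6 oligodendrocyte markers were lower in cKO, beside 6.54% of all gene sums, and their summed level was 6228 and 9763 FPKM in cKO against 15091 and 17249 FPKM in Ctrl. Of 4 markers of meninges and fibroblasts, 4 were lower, and their sum was 21.6 and 26.5 FPKM in cKO against 226 and 42.5 FPKM in Ctrl. Schwann cell markers summed to 1.86 and 1.41 FPKM in cKO, against 52.8 and 5.98 FPKM in Ctrl. The 2 Schwann cell markers tested were both lower, and Ctrl 1 was the highest library for these and for the meningeal markers. Of 4 microglia markers 3 were lower, and their sum was 29.2 and 27.4 FPKM in cKO against 40.9 and 42.9 FPKM in Ctrl. Of 4 neuron markers 0 passed the limma test and 2 were higher at an unadjusted p under 0.05, and their sum was 986 and 821 FPKM in cKO against 683 and 674 FPKM in Ctrl. Of 4 blood markers 3 were higher and 1 was lower, and their sum was 11.3 and 15.7 FPKM in cKO against 3.05 and 28.7 FPKM in Ctrl. Of 4 astrocyte markers 1 was higher, Slc1a3, while Gfap and Aqp4 were at -0.74 and -0.51 on the log2 scale and were not called. Of 3 motor neuron markers 1 was higher, Slc18a3, beside 4.13% of all gene sums. Of 2 precursor markers and 2 endothelium markers, 0 passed. Xist was at 19.6 and 0.233 FPKM in cKO, against 55.6 and 51.8 FPKM in Ctrl, and the Y-linked genes were above 1 FPKM in cKO 2 alone. The part of cell composition and sex in these differences was not tested.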

How the data were processed

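RNA of P8 mouse spinal cords was sequenced in 4 libraries, made with a TruSeq RNA kit per the labels' protocols. The submitters' processing notes name CASAVA, TopHat, Cufflinks and Cuffdiff and the build mm9, with no versions. The deposited tables give FPKM per RefSeq transcript, per the file headers, and the coverage, a per-base depth signal, and transcript length, also per the file headers. The sources used here give no read totals, so the ratio of coverage to FPKM gave relative depth, and coverage times length gave 1314 and 1818 covered megabases in cKO, against 1218 and 582 in Ctrl. Read numbers are estimates from the smallest steps of covered bases (51 to 54 bases for transcripts near 2400 bases).

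FPKM was summed per symbol over transcripts of at least 300 bases, leaving out 315 of 28107 entries with a status other than OK. Gene sums with a mean of at least 1 FPKM (12913) were tested as log2(FPKM + 1), a scale that understates changes of low genes, with limma 3.58.1 in R 4.3.3 (genotype only, mean-variance trend) and Benjamini-Hochberg adjustment at 0.05. Of these, 1378 passed. No share over all gene sums is given at an unadjusted p under 0.05, so nothing is read from counts at that threshold. The spread had 36.3 prior degrees of freedom and is mostly pooled over genes. On simulated data with 12913 genes, 100% of log2 changes of 1 and of 2 were recovered, with 5 false calls. The simulated noise was normal, independent between genes and set to the fitted spread. It checks the code only and does not measure power or error rates in these data. Named were the 10 genes, called or nearest neighbours, the listed relatives, up to 6 genes a direction by gap, and Chd7. The 10 genes and all lists were chosen with earlier results of these data known, and 1 listed gene is not reported here. Coordinates labelled mm9 are those of the deposited tables, counted from 1, and GRCm38 coordinates come from GENCODE M21 and RefSeq. No coordinate was converted. Alternatives covered scaling, pseudocount, filter, entries summed, variance model, replicate block and single libraries left out.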

Additional observations from a re-analysis of the deposited data

How the results depend on the processing

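Of 110 alternative values for the 10 genes, 18 moved by more than the spread within groups. Many of the 110 could not move that far. With 2 libraries a group, leaving 1 out shifts a difference by no more than this spread. The changed filters and the sum over all entries repeat the main value. The share that moved is thus no measure of stability. The sign of these values is fixed by how the genes were chosen and is no sign of stability either. BC002163 ran from -6.22 with a pseudocount of 0.1 to -0.19 when summed with Ndufs5 (groups overlapping), and Dynlt1b from 1.32 as a family sum to 4.90. The number of called gene sums, 1378, depended strongly on the processing. It was 659 with TPM scaling, 1 with no filter on low values, 53 with all entries summed, 18 for single transcripts and 384 to 1438 with 1 library left out, the lowest without cKO replicate 1. Called neighbours, 5 at first, numbered 3 with TPM scaling, 0 with no filter, 3 at a mean FPKM of at least 5, 0 with all entries summed, 5 of 108 within 500 kb and 0 to 7 with 1 library left out. Gene sums separated by at least 4-fold numbered 3, and 11 with TPM scaling, 13 with a pseudocount of 0.1, 19 with all entries summed, 46 for a gap of 2-fold and 8 to 11 with 1 library left out. For a given gene a gap can only widen with 1 library left out, because it runs between the nearest libraries of the 2 groups. A lower limit can likewise only admit more gene sums. TPM scaling divided the FPKM by 0.366 to 0.400 with the pseudocount and the filter limit kept at 1. In FPKM terms both were thus lower, and 14334 gene sums were past the filter. The causes of the changes were otherwise not tested.

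With the replicate number as a block, 996 gene sums and 4 neighbours were called. The labels do not say that the numbers pair the libraries, and the deviations of same-numbered libraries from their group means had a correlation of -0.24 across genes. A crossed pairing, chosen after seeing the data, called 2178 gene sums and 10 neighbours. In the block fit Gap43, Ndufs5, Btbd9 and Napepld no longer passed. Depth limits Dynlt1b and Rec8 in Ctrl and BC002163 and Gdpd3 in cKO, which rest on few reads.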
